A study of Homo sapiens with 6 samples.

Results

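The collagen, laminin and lysyl oxidase transcripts of HCT116 cells were compared between cells with and without a working CDKN1A gene. The set was taken from the rows of the deposited value table whose symbol begins with COL and a digit, with LAMA, LAMB or LAMC and a digit, or with LOX, and 21 of 770 genes are described: 5 fibrillar collagens, 5 collagens of basement membranes and their attachment zone, 3 chains of collagen VI, 6 laminin chains and 2 lysyl oxidase enzymes. HCT116 is an epithelial cell line from a human colorectal carcinoma. HCT116 wild-type (WT) cells carry CDKN1A, which encodes the cell cycle inhibitor p21, and HCT116 p21-/- cells are an isogenic derivative in which this gene is disrupted. Each line was measured as 3 biological replicates of untreated cells on the NanoString PanCancer Progression Panel, on which 1 probe pair per transcript is counted by its fluorescent barcode. The labels name RPMI with serum for both lines, but the methods name DMEM for the p21-/- cells, so genotype and medium cannot be told apart if the methods apply. By the methods, WT cells came from a cell bank and p21-/- cells from another laboratory. The study also describes long passaging of the p21-/- line. Origin and passage history cannot be told apart from genotype. The sources do not say whether the p21-/- samples come from 1 clone. In bulk RNA, fewer expressing cells and less RNA per cell cannot be told apart either.

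A basement membrane is the thin sheet of matrix under an epithelium. It is built on a laminin network, in which every laminin joins an alpha, a beta and a gamma chain, and on a collagen IV network, tied together by nidogens and heparan sulfate proteoglycans such as perlecan and agrin. Fibrillar collagens (types I, III and V among others) form the cables of the stroma and are made mainly by fibroblasts, collagen VI forms beaded filaments between stroma and basement membrane, and lysyl oxidases oxidize lysines so that collagen and elastin become crosslinked.

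The values are counts that the authors normalized, and a value too low to be told from the negative control probes was given as a floor, a number fixed for each sample and lying between 25.7 and 34.9. Such a value only bounds the level from above, at the floor or, in the 4 samples that the normalization scaled up, at a bound of 36.5 to 44.9. CDKN1A itself fell to 8.90% of its WT mean, with 4701 ± 834 normalized counts in WT and 419 ± 37.0 in p21-/- cells (SD, n = 3 each), and the lines did not overlap. Markers of colon epithelium were present in both lines, with 6 of 6 above the floor everywhere and a summed level of 26546 to 31007 in WT and 14255 to 14975 in p21-/- samples. Of these markers 5 fell, CDH1 (E-cadherin) to 10.5% of its WT mean, and EPCAM rose to 116% (adjusted p = 0.0444 from limma), with a log2 fold change of -0.17 when samples were scaled to 30 housekeeping candidates. The markers of other cell types were mostly at the floor, 2 of 6 fibroblast, 4 of 5 endothelial and 2 of 3 leukocyte markers in every sample. Their summed level was, over 6 fibroblast markers, 178.9 to 209.6 in WT and 178.9 to 236.4 in p21-/- samples, over 5 endothelial markers, 149.0 to 174.7 and 129.9 to 176.4, and over 3 leukocyte markers, 89.4 to 104.8 and 85.0 to 101.5. All of these markers were at the floor in every WT sample, so the WT sums are sums of floors and hold no signal above them. The part of these markers in the results was not tested. PDGFRB, a fibroblast marker, was the one that passed the test, at the floor in every WT sample and at 43.7 to 55.0 in p21-/- samples. It did not pass with the floors at their upper bounds, of which that of WT replicate 1, 44.9, is above the lowest p21-/- value.

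The test (limma, adjusted p below 0.05) called 7 of the 21 genes, or 33.3%, where it called 47.8% of all 770 genes, 21.8% higher and 26.0% lower. LAMC1 and LAMA3 rose in p21-/- cells, and COL1A1, COL18A1, LAMA5, COL6A2 and LAMB3 fell. The changes were between a fall to 29.8% of the WT mean and a rise to 1.83 times that mean. By family, 4 of 6 laminin chains passed, 2 higher and 2 lower. Of the others, 1 of 5 fibrillar collagens, 1 of 5 basement membrane collagens and 1 of 3 collagen VI chains passed, all lower. Of 2 lysyl oxidases 0 passed. Above the floor in every sample were 4 laminin chains, 2 fibrillar collagens, 2 basement membrane collagens, 2 collagen VI chains and 1 lysyl oxidase. Every called gene was among these, so the family counts depend on how many genes were measurable. The difference between families was not tested. The median log2 fold change of the genes above the floor in every sample was -0.41 for 11 of the 21 genes and -0.05 for 446 genes of the panel. Over all 21 and all 770 genes it was -0.05 and -0.12, values that genes at the floor set. The same 7 genes were those with no overlap between WT and p21-/- values, as were 52.2% of all genes. Of the 21 genes, 11 were above the floor in all 6 samples, 8 in some and 2, COL5A1 and COL6A3, in none. The floor of p21-/- replicate 2, 25.7, was the lowest, and a value above it can lie below the floors of other samples. There were 6 genes with a p21-/- value above the floor and no such WT value. All but COL4A1 stayed below the highest WT floor, 34.9, and COL4A1, at 42.1, below the bound of 44.9 for WT replicate 1, so they cannot be read as higher in p21-/- cells. Of the 446 genes that were above the floor throughout, 70.2% passed, and of the 11 such genes in the set, 7 passed. Levels of different genes come from different probes and are not compared with each other here.

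**Figure D1:**
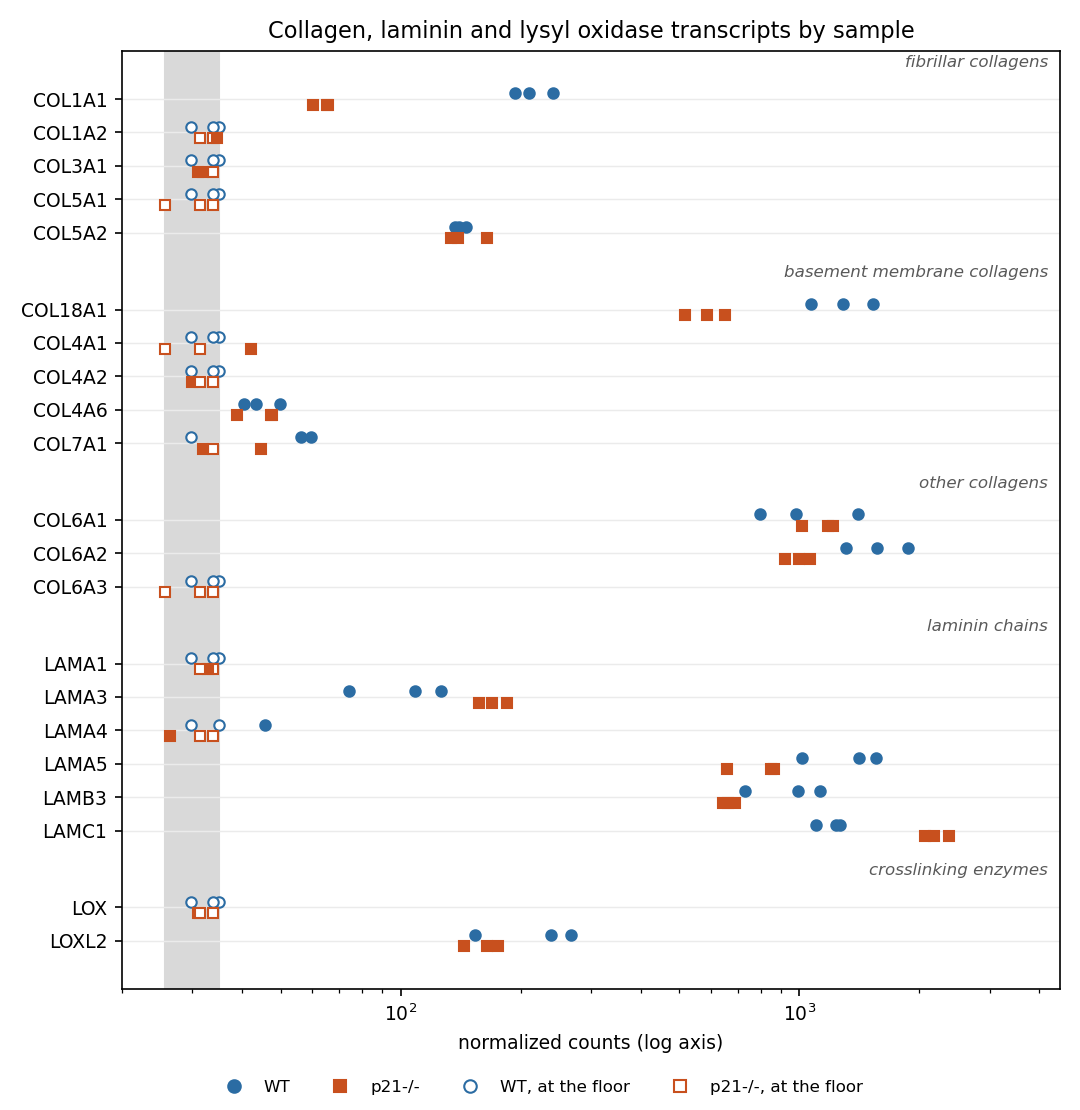
Normalized counts on a log axis for the 21 genes, a row each, grouped by family. Circles are the 3 WT samples, squares the 3 p21-/- samples, open symbols stand at the floor of their sample, and the grey band spans the floors of the 6 samples. COL1A1 and COL18A1 sit lower and LAMC1 higher in every p21-/- sample than in any WT sample.

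The promoter letters of the 6 called genes found in the reference table are given so that the chains that rose (LAMC1, LAMA3) can be read beside those that fell (LAMB3, LAMA5, COL18A1, COL6A2). Each is the 250 bases before a RefSeq start on GRCh38.p14, written 5′ to 3′ on the gene's own strand. The start is the outermost of the gene for 5 of them, whereas that of LAMA3 is an internal start 183.6 kb inside the gene. Some genes had more than 1 window in the reference table, LAMB3 3 and COL18A1 2 among those printed, and only the first was searched. Capitals mark 5 motifs searched on both strands. CACCTG is the E-box bound by repressors of the SNAI and ZEB families. TGANTCA is the site of AP-1, a dimer of FOS and JUN proteins. GGGCGG is the GC box bound by SP factors. The TATA box was searched as TATAAA, and the site of the NF-Y complex was searched as CCAAT.
LAMC1 (chr1:183023170-183023419, plus strand): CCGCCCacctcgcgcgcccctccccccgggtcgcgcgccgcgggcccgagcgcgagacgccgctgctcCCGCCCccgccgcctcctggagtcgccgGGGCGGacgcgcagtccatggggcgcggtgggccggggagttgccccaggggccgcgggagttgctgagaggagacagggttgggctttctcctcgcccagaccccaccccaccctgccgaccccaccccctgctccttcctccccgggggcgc
LAMA3 (chr18:23872770-23873019, plus strand): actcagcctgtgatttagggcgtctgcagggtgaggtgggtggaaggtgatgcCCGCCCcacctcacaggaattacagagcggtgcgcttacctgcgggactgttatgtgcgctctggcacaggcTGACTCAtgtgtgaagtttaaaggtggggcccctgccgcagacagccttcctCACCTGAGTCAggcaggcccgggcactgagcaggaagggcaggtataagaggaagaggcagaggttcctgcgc
LAMB3 (chr1:209652426-209652675, minus strand): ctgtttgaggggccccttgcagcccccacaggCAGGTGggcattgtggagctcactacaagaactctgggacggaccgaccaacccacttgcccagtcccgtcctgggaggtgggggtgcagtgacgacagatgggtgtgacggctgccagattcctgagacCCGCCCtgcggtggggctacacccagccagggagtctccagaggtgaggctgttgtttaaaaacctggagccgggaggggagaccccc
LAMA5 (chr20:62367313-62367562, minus strand): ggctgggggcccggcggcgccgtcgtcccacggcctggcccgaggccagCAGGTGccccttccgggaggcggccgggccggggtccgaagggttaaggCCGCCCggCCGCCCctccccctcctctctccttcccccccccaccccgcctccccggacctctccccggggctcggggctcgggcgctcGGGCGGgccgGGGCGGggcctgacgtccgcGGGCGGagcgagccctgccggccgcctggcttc
COL18A1 (chr21:45404915-45405164, plus strand): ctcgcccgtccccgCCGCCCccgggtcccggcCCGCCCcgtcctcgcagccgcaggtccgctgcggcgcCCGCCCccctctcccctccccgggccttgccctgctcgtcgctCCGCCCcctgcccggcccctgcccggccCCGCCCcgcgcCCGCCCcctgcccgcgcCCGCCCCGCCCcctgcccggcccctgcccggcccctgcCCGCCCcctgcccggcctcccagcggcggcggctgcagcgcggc
COL6A2 (chr21:46097862-46098111, plus strand): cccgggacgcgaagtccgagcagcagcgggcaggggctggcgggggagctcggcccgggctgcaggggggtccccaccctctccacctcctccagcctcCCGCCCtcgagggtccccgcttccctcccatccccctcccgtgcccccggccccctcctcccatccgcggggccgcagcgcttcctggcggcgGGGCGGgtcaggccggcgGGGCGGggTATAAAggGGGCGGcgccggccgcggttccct
The E-box letters occurred once each in the windows of LAMA3, LAMA5 and LAMB3, in no other of the 14 windows matched, and in 17.5% of all 27305 promoter windows. AP-1 letters occurred 2 times in LAMA3, where the second overlaps the E-box, in no other of the 14, and in 6.60% of all windows. The GC box was in 11 of the 14, with 9 copies in COL18A1, 5 in LAMA5, 4 in COL6A2, 3 in LAMC1 and 1 each in LAMA3 and LAMB3, against 42.3% of all windows. The TATA box letters were in 2 of the 14, COL6A2 and COL7A1, and in 11.1% of all windows. The CCAAT letters were in 4 of the 14, none of them among the called genes, and in 33.0% of all windows. The bases of the windows were 60.4% G or C in LAMA3 and 64.0% in LAMB3, 79.6% in LAMC1 and in COL6A2, 82.8% in LAMA5 and 88.4% in COL18A1, with a median of 58.0% over all windows. These matches are descriptions of letters. E-box matches were in windows of a chain that rose and of chains that fell. The reference table matched 14 of the 21 genes, and COL1A1 and COL6A1 were not among them.

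LAMC1, the gamma 1 chain found in most laminins, rose. It was at 1100, 1265 and 1237 normalized counts in the WT samples, in replicate order here and throughout, and at 2065, 2173 and 2373 in the p21-/- samples. Every p21-/- value lay well above every WT value, and the p21-/- mean was 1.83 times that of WT, a log2 difference of 0.88 ± 0.0938 (standard error; limma adjusted p = 7.76e-07).

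The alpha chains moved in opposite directions. LAMA3, the alpha 3 chain of the laminin that anchors epithelia through hemidesmosomes, was at 108, 74.1 and 126 normalized counts in WT and at 169, 157 and 185 in p21-/- samples. The highest WT value stayed below the lowest p21-/- value. The rise was to 166% of the WT mean, a log2 difference of 0.75 ± 0.196 (standard error; limma adjusted p = 0.00411). Samples scaled to the housekeeping candidates gave 0.37 for LAMA3 (adjusted p = 0.15). LAMA5, the alpha 5 chain of the laminins that lie under most adult epithelia, was at 1017, 1556 and 1408 in WT and at 657, 863 and 850 in p21-/- samples. It fell to 59.5% of the WT mean, a log2 difference of -0.74 ± 0.146 (standard error; limma adjusted p = 0.000472), and the lines did not overlap. LAMA1, a chain of early embryonic basement membranes, was above the floor in 1 sample, p21-/- replicate 2, at 32.8. LAMA4, the alpha 4 chain of vessels and muscle, was above it in WT replicate 3, at 45.6, and in p21-/- replicate 2, at 26.4.

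LAMB3, the beta 3 chain and the single beta chain among the 21 genes, was at 729, 1129 and 993 normalized counts in WT and at 645, 663 and 691 in p21-/- samples. The gap between the lines was narrow, with WT replicate 1 just above the highest p21-/- sample. The mean fell to 70.1% of WT, a log2 difference of -0.49 ± 0.136 (standard error; limma adjusted p = 0.00660). After quantile normalization it was -0.20 (adjusted p = 0.411). A plain linear model, in which each gene has its own spread alone, gave adjusted p-values of 0.0724 for LAMA3, 0.0685 for LAMA5 and 0.125 for LAMB3, and kept LAMC1 below 0.05.

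Chains that assemble into 1 protein were also set against each other within each sample, which cancels any factor that scales a whole sample. The 3 pairs were chosen after the values were seen, so their ratios are a description with no test, and the ratio of a pair has no meaning as a ratio of molecules because the probes differ. LAMA3 over LAMB3, the alpha and beta chains of that epithelial laminin, had log2 ratios of -2.75, -3.93 and -2.97 in WT and -1.93, -2.07 and -1.90 in p21-/- samples. This was a shift of 1.25 on the log2 scale, or 2.38 times, with no overlap. LAMC1 over LAMA5, a gamma and an alpha chain of other epithelial laminins, moved from -0.12 ± 0.213 to 1.49 ± 0.160 (SD, n = 3 each), a shift of 1.61 with no overlap.

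**Figure D2:**
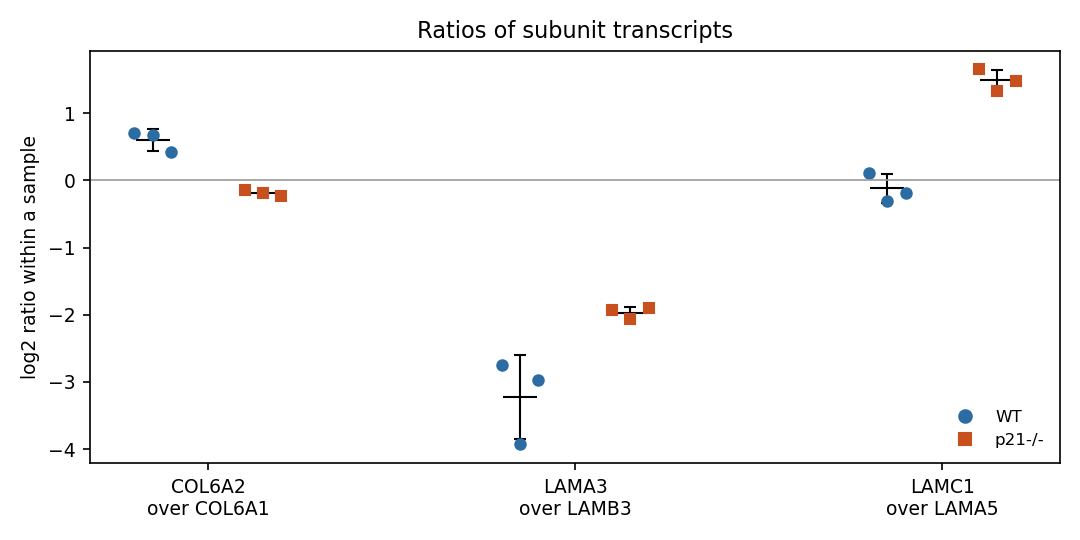
Log2 ratios of the transcripts of chains that assemble together, a point for each sample, circles for WT and squares for p21-/- cells, with the mean and SD (n = 3) as black bars. The lines are apart for all 3 pairs.

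Among the fibrillar collagens, COL1A1 fell and its partner chain was too close to the floor to be compared. COL1A1 encodes the alpha 1 chain of collagen I, the main collagen of stroma and bone, and was at 209, 193 and 241 normalized counts in WT and at 65.8, 65.5 and 60.2 in p21-/- samples. The p21-/- samples lay close together, far below every WT sample and above the floor. The mean fell to 29.8% of WT, a log2 difference of -1.73 ± 0.165 (standard error; limma adjusted p = 2.27e-07), the largest change of the 21 genes. Divided by the normalization factor of each sample, these values stand for 61 to 206 barcode counts. COL1A2, the alpha 2 chain of the same molecule, was above the floor in p21-/- replicate 2, at 34.6, and in no other sample. COL3A1, the collagen III chain that accompanies collagen I in elastic tissues, exceeded the floor in p21-/- replicates 2 and 3, at 31.0 and 31.9, and in no WT sample. COL5A1, the alpha 1 chain of collagen V, was at the floor throughout.

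COL5A2, the alpha 2 chain of collagen V, which starts and limits collagen I fibrils, was the other fibrillar collagen above the floor in every sample. It was at 140, 146 and 137 normalized counts in WT and at 165, 139 and 134 in p21-/- samples. The lines overlapped. The log2 fold change was 0.04, with a 95% confidence interval from -0.30 to 0.39 (adjusted p = 0.832 from limma). COL5A2 lies next to COL3A1 on chromosome 2, and the transcript of that neighbour was close to the floor in both lines.

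Of the basement membrane collagens, COL18A1 fell while the collagen IV chains were close to the floor. COL18A1 encodes collagen XVIII, a proteoglycan of basement membranes whose end fragment is endostatin, and was at 1067, 1287 and 1533 normalized counts in WT and at 518, 653 and 586 in p21-/- samples. The highest p21-/- sample was far below the lowest WT sample. The mean fell to 45.2% of WT, a log2 difference of -1.14 ± 0.131 (standard error; limma adjusted p = 1.83e-06). COL4A1 and COL4A2, the chains of the common collagen IV network, are neighbours on chromosome 13. No WT sample was above the floor for either, and each had 1 p21-/- sample above it, COL4A1 at 42.1 in replicate 1 and COL4A2 at 30.0 in replicate 2. COL4A6, a chain of a more restricted collagen IV network, was above the floor throughout, at 49.7, 40.4 and 43.3 in WT and at 47.5, 47.3 and 38.9 in p21-/- samples, or 33 to 52 barcode counts. Its lines overlapped, with a log2 fold change of 0.00 and a 95% confidence interval from -0.34 to 0.34 (adjusted p = 0.991 from limma).

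COL7A1, which forms the anchoring fibrils under the epidermis, was at the floor in WT replicate 1 and at 59.5 and 56.1 in WT replicates 2 and 3. In p21-/- cells it was at the floor in replicate 1 and at 44.6 and 31.9 in replicates 2 and 3. The values overlapped through the floor of WT replicate 1, and the log2 difference was -0.34 ± 0.226 (standard error; limma adjusted p = 0.264). Without WT replicate 1 it was -0.65 (adjusted p = 0.00349), and without p21-/- replicate 2 it was -0.49 (adjusted p = 0.0382).

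Of the collagen VI chains, COL6A2 fell and COL6A1 did not pass the test. COL6A2 was at 1308, 1567 and 1872 normalized counts in WT and at 919, 1061 and 999 in p21-/- samples, with no overlap. It fell to 62.8% of the WT mean, a log2 difference of -0.66 ± 0.120 (standard error; limma adjusted p = 0.000205). COL6A1 was at 799, 982 and 1403 in WT, a wide spread, and at 1018, 1211 and 1182 in p21-/- samples. The p21-/- values lay inside the range of the WT values. Its log2 fold change was 0.14, with a 95% confidence interval from -0.20 to 0.47 (adjusted p = 0.495 from limma). Without WT replicate 3 it was 0.36 (adjusted p = 0.0213), and without WT replicate 1 it was -0.05. Within samples, the log2 ratio of COL6A2 over COL6A1 was 0.71, 0.67 and 0.42 in WT and -0.15, -0.19 and -0.24 in p21-/- samples, a shift of -0.79 with no overlap. Both genes are neighbours on chromosome 21, and COL18A1 lies on the same chromosome with 2 protein-coding genes between it and COL6A1. COL6A3, the alpha 3 chain, was at the floor in all 6 samples.

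Neither lysyl oxidase passed the test. LOXL2, which crosslinks collagen IV, was at 267, 154 and 239 normalized counts in WT and at 176, 144 and 165 in p21-/- samples. WT replicate 2 lay among the p21-/- values and the other WT samples above them. The log2 fold change was -0.41, with a 95% confidence interval from -0.83 to 0.01 (adjusted p = 0.104 from limma). Without WT replicate 2 it was -0.65 (adjusted p = 0.00211), and without WT replicate 1 it was -0.25 (adjusted p = 0.275). With samples scaled to the housekeeping candidates it was -0.79 (adjusted p = 0.00397), and after quantile normalization it was -0.01. LOX, the founding member of the family, was above the floor in 1 sample, p21-/- replicate 2, at 31.0.

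**Figure D3:**
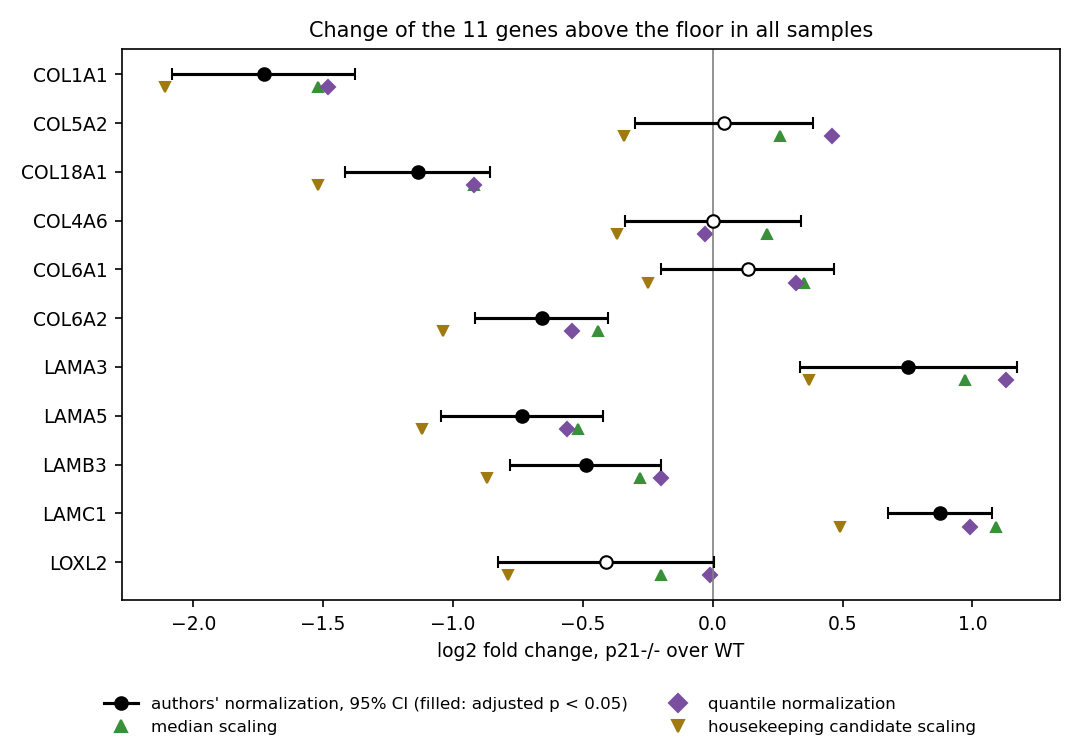
Log2 fold change of p21-/- over WT for the 11 genes that no sample had at the floor. Circles show the authors' normalization with the 95% confidence interval from limma, filled where the adjusted p is below 0.05, and coloured symbols show the same value under other scalings. LAMC1 and LAMA3 stay above 0 and COL1A1, COL18A1, COL6A2, LAMA5 and LAMB3 below 0 under all of them, whereas COL6A1, COL5A2 and COL4A6 cross 0.

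Another scaling moved the middle of the panel. The median log2 fold change of 446 genes, those above the floor in every sample, was -0.05 with the authors' normalization, 0.16 after median scaling, 0.13 after quantile normalization and -0.43 with samples scaled to the housekeeping candidates, whose geometric mean was 887 to 934 in WT and 1188 to 1200 in p21-/- samples. Replicates of WT were further apart than replicates of p21-/- for 9 of the 11 genes, with a median SD on the log2 scale of 0.261 against 0.135. The same count was not made over the panel, so it cannot be read as a trait of these genes.

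The enzymes and chaperones that fold and modify collagen chains were taken from a list of 27 genes, of which the table held 5. Of these, 3 rose, 1 fell and 1 did not pass, so that 80.0% were called beside 47.8% of all genes and 70.2% of those above the floor, with a median log2 fold change of 0.31 over the 4 above the floor in every sample, where that of the panel was -0.05. SERPINH1, the collagen chaperone of the endoplasmic reticulum, was at 4504, 4568 and 5096 normalized counts in WT and at 8065, 8109 and 8223 in p21-/- samples, a rise to 172% (adjusted p = 5.34e-07 from limma). P3H1, which hydroxylates prolines of collagen I, rose to 187% of the WT mean, from 893 ± 113 to 1669 ± 67.2 (SD, n = 3 each, adjusted p = 1.56e-06 from limma). P3H2, which acts mainly on collagen IV, had a log2 fold change of 0.99 with 1 WT sample at the floor. PXDN, a peroxidase that crosslinks collagen IV by sulfilimine bonds, fell from 339, 370 and 401 to 47.5, 41.0 and 38.1, which is 11.4% of the WT mean (log2 difference -3.11 ± 0.167, standard error; limma adjusted p = 1.85e-10). None of these 4 changed direction under the other scalings. PCOLCE, an enhancer of procollagen processing, had 77.1 ± 5.45 and 68.8 ± 3.64 (SD, n = 3 each, adjusted p = 0.495 from limma), and passed as lower with samples scaled to the housekeeping candidates (-0.54, adjusted p = 0.0101).

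Of 18 partners of laminin and collagen IV in basement membranes, the table held 7, with 3 higher, 1 lower and 3 that did not pass (median log2 fold change 0.31 over the 3 above the floor in every sample). The 57.1% called are near the 47.8% of all genes. The heparan sulfate proteoglycans went opposite ways. HSPG2, which encodes perlecan, was at 429, 696 and 750 normalized counts in WT and at 76.6, 90.1 and 106 in p21-/- samples, a fall to 14.6% (log2 difference -2.74 ± 0.200, standard error; limma adjusted p = 8.86e-09). AGRN, which encodes agrin, was at 255, 357 and 345 in WT and at 548, 624 and 603 in p21-/- samples, a rise to 186% (log2 difference 0.90 ± 0.142, standard error; limma adjusted p = 4.82e-05). SPARC, a collagen-binding glycoprotein of the matrix, rose most, with 2 of 3 WT samples at the floor and 4244 to 4981 in p21-/- samples. FBLN1, a basement membrane glycoprotein, had a log2 fold change of 0.31 (adjusted p = 0.0461), and of -0.08 with samples scaled to the housekeeping candidates. Its call was lost in 8 of 16 alternatives, among them 5 of 6 that left out a sample, all but WT replicate 3 (0.22 to 0.43, adjusted p up to 0.155). ECM1, a matrix protein that binds perlecan, did not pass, and passed as lower without WT replicate 2 (-0.54, adjusted p = 0.0456). NID2, the nidogen on the panel, was above the floor in 1 sample.

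Of 12 receptors of these chains measured from a list of 20, 9 fell, 1 rose and 2 did not pass. The 83.3% called stand beside 70.2% of the genes above the floor in every sample, as 11 of the 12 were, and the median log2 fold change of these 11 was -1.15. With samples scaled to the housekeeping candidates 10 fell and 0 rose, and after median scaling 9 fell and 2 rose. ITGB1, the beta 1 integrin shared by most collagen and laminin receptors, fell to 45.1%, with 15900 ± 513 normalized counts in WT and 7167 ± 162 in p21-/- cells (SD, n = 3 each, adjusted p = 4.28e-09 from limma). ITGA3, which pairs with it to bind alpha 3 and alpha 5 laminins, fell to 12.4% of the WT mean, and ITGB4, the hemidesmosome integrin, to 41.6%. ITGA2, a collagen receptor subunit, fell to 50.0%, ITGA7, a laminin receptor subunit, to 42.4%, CD44 to 33.4%, and SDC4, a syndecan, to 37.2%. DDR2, a kinase receptor for fibrillar collagens, fell to 51.1% and was close to the floor, with 76.2 ± 22.7 normalized counts in WT and 38.9 ± 1.05 in p21-/- cells (SD, n = 3 each), and its call was lost in 1 of 16 alternatives, the plain linear model. ITGA6, the partner of ITGB4, was at 4136 ± 355 in WT and 4239 ± 20.1 in p21-/- cells (SD, n = 3 each, adjusted p = 0.715 from limma), and passed as higher after median scaling (0.25, adjusted p = 0.0101) and as lower with samples scaled to the housekeeping candidates (-0.35, adjusted p = 0.00108). The single receptor that rose, named after its value was seen, was DAG1, which encodes dystroglycan, with a log2 fold change of 0.29 (adjusted p = 0.0252), and of -0.10 with samples scaled to the housekeeping candidates. The call of DAG1 was lost in 7 of 16 alternatives, among them those without WT replicate 2 and without each p21-/- replicate (0.20 to 0.39 over all 6 samples left out, adjusted p up to 0.0974).

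Of 18 proteases listed as collagen degrading, 11 were measured, 5 of them at the floor in all samples, MMP1, MMP2, MMP3, MMP10 and FAP. The test called 3 higher and 1 lower, or 36.4% beside 47.8% of all genes, and the median log2 fold change was 0.36 over the 4 above the floor in every sample. CTSL, a cathepsin, rose to 172% of the WT mean (adjusted p = 7.04e-06 from limma) and MMP17 to 167% (adjusted p = 0.00210), the latter with an adjusted p of 0.0893 when samples were scaled to the housekeeping candidates. MMP13, a collagenase, had every WT sample at the floor and 61.0 to 67.3 in p21-/- samples, at least 1.56-fold higher. CTSK, a cathepsin that degrades collagen I in bone, fell to 56.0% (adjusted p = 0.000330) and had an adjusted p of 0.0660 after quantile normalization. MMP9, a gelatinase, did not pass, and passed as higher without p21-/- replicate 1 (0.54, adjusted p = 0.0123). MMP14, the membrane collagenase, had a log2 fold change of -0.05 (adjusted p = 0.809), and of -0.43 with samples scaled to the housekeeping candidates (adjusted p = 0.0264).

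**Figure D4:**
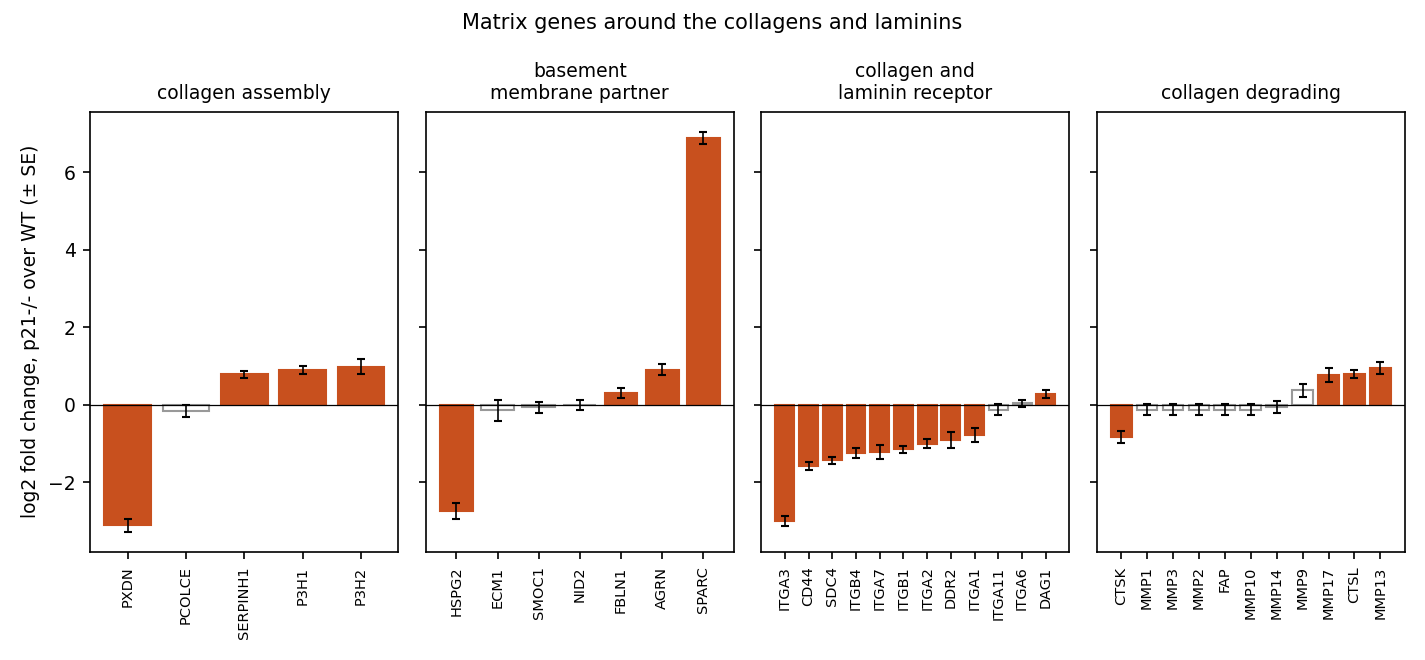
Log2 fold change of p21-/- over WT, with its standard error, for the measured genes of 4 lists around the collagens and laminins. Filled bars passed an adjusted p below 0.05. In the collagen and laminin receptor list 9 of 12 bars are filled and below 0, and in the collagen assembly list 3 of 5 are filled and above 0.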

How the data were processed

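RNA of 3 WT and 3 p21-/- samples was hybridized to the NanoString panel by the authors, and the deposited values are a signal, counts normalized in nSolver 3.0 to positive controls and housekeeping genes, in which a low value was set to a floor, 2 SD above the mean of that sample's negative controls. Dividing by a factor per sample made 100% of values under 500 and above the floor whole, within 0.1 count, and gave totals of 867421 to 1335467 barcode counts. The 6 samples were assigned to lines by their titles. The p21-/- and WT lines were compared on log2(value + 1) with limma 3.58.1 in R 4.3.3 (lmFit, eBayes with an intensity trend, two-sided, no filter), with Benjamini-Hochberg adjustment over 770 genes. Fold changes on this scale understate the change of low genes. NanoStringDiff, which the study used and which needs raw counts, was not run. In 10 simulations of 770 genes for this comparison, 80.2% of 200 changed genes were recovered at the median and 3.06% of calls were false. Both rates are pooled over the genes of a simulation. Whether they hold for differences as small as those of LAMB3, COL6A2, LAMA5, LAMA3 and LAMC1 was not tested. Promoter letters came from RefSeq. Named were the members above the floor in all samples of at least 1 line, with the others given by their floor, and at most 8 called genes of each other list, those with the largest change. DAG1 and genes of these lists that did not pass were named besides, after their values were seen. 1 gene that the naming rule for the set takes stayed in the fit and is not reported here. The members and lists were chosen with earlier results of these data known. Alternatives were other pseudocounts, a filter, 3 scalings, a higher bound for the floor, a block for the replicate number, a plain linear model, a prior variance without trend, and leaving out each sample. Housekeeping scaling used 30 of 40 candidate genes written from general knowledge.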

Additional observations from a re-analysis of the deposited data

How the results depend on the processing

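COL1A1, COL18A1, COL6A2 and LAMC1 kept their direction and an adjusted p below 0.05 under all 16 alternatives. With the floor replaced by its upper bound, which by construction raises the floors of WT samples most, 560 of all genes passed (392 lower), 9 of the 21 genes were lower (COL5A1, COL6A3, COL7A1 and LAMA4 besides the 5), 2 fibrillar, 2 basement membrane and 2 collagen VI genes passed, and 9 of the collagen degrading list passed. With an ordinary linear model 1 of the 21 genes was higher and 3 were lower, 1 laminin chain passed, and the cause was not tested. Median scaling added COL6A1, so that 2 collagen VI chains passed, and housekeeping candidate scaling added LOXL2, so that 1 lysyl oxidase passed, and left 1 of the 21 genes higher, LAMC1. The direction turned under housekeeping candidate scaling for COL4A6 (-0.37), COL5A2 (-0.34) and COL6A1 (-0.25), and under quantile normalization for COL4A6 (-0.03), none of them called in the comparison as reported. Leaving out single samples turned COL4A6 (-0.06 to 0.09), COL5A2 (-0.05 to 0.10) and COL6A1 (-0.05 to 0.36). It gave 332 to 395 of all genes, 2 to 3 genes higher and 5 to 6 lower among the 21, 1 to 2 basement membrane collagens, 1 to 2 collagen VI chains and 0 to 1 lysyl oxidases. Of all called genes, 45.7% were higher with the authors' scaling (168 higher, 200 lower), 58.4% after median scaling (240 higher, 171 lower), 58.0% after quantile normalization, 30.0% with the floor at its upper bound and 24.7% with the housekeeping candidates. The replicate number as a block gave 363 genes and 8 of the 21, with 1 lysyl oxidase, LOXL2 (adjusted p = 0.0326). Same-numbered samples did not deviate together, with correlations of 0.076, -0.054 and 0.052 over 446 genes. The labels do not say whether the numbers pair the samples, and these normalized values cannot settle it. Of the 21 genes, 10 were at the floor in some or all samples, which limits what can be seen of them.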
